A study of Mus musculus with 15 samples.

Results

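A set of 10 imprinted genes, most with known roles in growth, was followed across the sorted fat cell precursors of mouse pups: the growth factor gene Igf2 and its neighbour H19, Dlk1 and its neighbour Meg3, the paternally expressed Peg3, Mest and Plagl1, the maternally expressed Grb10 and Cdkn1c, and the long noncoding RNA Snhg14. They were picked by name, not by a measured value, although earlier results of these data were known. All 10 of 10 were found by Ensembl gene ID in both deposited tables, which together list 24673 genes. RNA had been sequenced in bulk from adipocyte precursor cells of the subcutaneous adipose tissue of wildtype C57Bl/6 pups. The pups had been cross-fostered, and the milk they drank had either a low or a high n6/n3 ratio of polyunsaturated fatty acids. The labels state 12 days of exposure in one protocol and 10 days in the other. Flow cytometry gave CD24+ cells, called progenitors by the submitters, and CD24- cells, called preadipocytes. The groups were 4 progenitor libraries from pups on low-ratio milk (numbered 108, 114, 119 and 133) and 4 from pups on high-ratio milk (1015, 1017, 1018 and 1019), and 4 preadipocyte libraries on low-ratio milk (108, 114, 119 and 133) and 3 on high-ratio milk (1015, 1017 and 1019). For the 4 preadipocyte libraries on low-ratio milk the source name says high and the characteristics say low. The characteristics were followed. How many pups went into a library is not stated in the labels.

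An imprinted gene is read mainly from the copy inherited from one parent, because the parental copies carry different DNA methylation at a control region. Paternally expressed genes of this kind, such as Igf2, tend to promote growth before and after birth, and maternally expressed ones, such as Cdkn1c and Grb10, tend to restrain it. In the fat lineage Dlk1, also known as preadipocyte factor, holds back adipocyte differentiation, and Mest is known in mice for its link to fat mass expansion. These libraries measure the sum of both parental copies, so nothing here bears on imprinting itself.

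Several members share a stretch of chromosome (GENCODE annotation, build GRCm38). H19 lies at chr7:142575529-142578143 and Igf2 at chr7:142650766-142666816, both on the minus strand, with Cdkn1c further along at chr7:143458339-143461050. Dlk1 at chr12:109452823-109463336 and Meg3 at chr12:109541001-109571726 lie on the plus strand. Peg3 (chr7:6703892-6730431, minus), Snhg14 (chr7:59307924-59975759, minus), Mest (chr6:30723547-30748465, plus), Plagl1 (chr10:13060504-13131694, plus) and Grb10 (chr11:11930508-12038683, minus) have no other member close by.

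H19 and Meg3 are noncoding and also host microRNAs. Their mature sequences (RefSeq, GRCm38.p6) are shown because the genes' RNA, and not the microRNAs, is what these libraries count. All 5 lie in exons, and capitals mark the seed, bases 2 to 8, which differs among the 5.
miR-675-5p (H19): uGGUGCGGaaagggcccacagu
miR-675-3p (H19): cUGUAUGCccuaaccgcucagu
miR-770-5p (Meg3): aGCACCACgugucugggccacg
miR-770-3p (Meg3): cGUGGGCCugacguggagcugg
miR-1906 (Meg3): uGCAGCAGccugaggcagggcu

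RefSeq promoter windows, each from 250 bases before to 50 bases after a start, were found for 8 members, 15 windows in all, and none was matched for H19 and Cdkn1c. They were searched on both strands for GGGGCCCC, a sequence that PLAGL1 binds, for TGACGTCA, the cAMP response element, and for TATAAA, the TATA box. Meg3 has another window, at chr12:109545148-109545447, that holds none of these sequences. Its window with matches is shown because Meg3 differed between milks in preadipocytes. It runs over chr12:109540746-109541045 on the plus strand, and capitals mark TGACGTCA starting 57 bases before the start, and TATAAA on both strands, overlapping each other, starting 29 and 25 bases before it.
Meg3 promoter: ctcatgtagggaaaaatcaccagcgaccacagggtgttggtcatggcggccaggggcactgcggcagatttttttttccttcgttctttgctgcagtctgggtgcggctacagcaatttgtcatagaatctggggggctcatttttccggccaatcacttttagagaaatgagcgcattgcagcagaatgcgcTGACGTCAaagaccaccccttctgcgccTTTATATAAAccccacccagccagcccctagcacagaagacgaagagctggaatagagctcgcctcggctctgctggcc

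The window of Peg3, at chr7:6730370-6730669 on the minus strand, was the only member window with GGGGCCCC, 201 bases before the start, and it also holds TGACGTCA, 178 bases before the start.
Peg3 promoter: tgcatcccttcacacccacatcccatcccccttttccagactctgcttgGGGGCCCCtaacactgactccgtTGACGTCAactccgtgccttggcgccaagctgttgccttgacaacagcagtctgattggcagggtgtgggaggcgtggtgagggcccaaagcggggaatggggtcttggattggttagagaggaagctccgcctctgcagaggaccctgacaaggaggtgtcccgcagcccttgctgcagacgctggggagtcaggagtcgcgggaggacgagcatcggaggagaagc
Of all 32851 windows, 1.08% hold GGGGCCCC, 1.79% hold TGACGTCA and 13.6% hold TATAAA, against 1, 2 and 1 of the 15 member windows. These matches describe the letters and say nothing on binding.

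The values below are normalized counts, obtained by undoing the authors' deposited variance stabilizing transformation, separately in each table. Estimated depth was 34.4 to 59.3 M reads (M, mega) per progenitor library and 13.8 to 68.8 M per preadipocyte library, so counting error is small for every member but Snhg14. Markers of the sorted cells were present: Pdgfra averaged 16363 ± 1840 normalized counts in progenitors on low-ratio milk and 16527 ± 1389 on high-ratio milk (SD, n = 4 each). Cd24a averaged 2209 ± 210 normalized counts on low-ratio and 2281 ± 442 on high-ratio milk in progenitors (SD, n = 4 each). In preadipocytes it averaged 616 ± 52.1 on low-ratio milk (n = 4) and 631 ± 76.5 on high-ratio milk (n = 3). The skeletal muscle markers found in the table (5 of 6 listed) summed to 966 to 2144 normalized counts in progenitors on low-ratio milk and 976 to 1256 on high-ratio milk, with Des at 955 in library 119. In preadipocytes those muscle markers summed to 264 to 560 on low-ratio milk and 311 to 533 on high-ratio milk. Pax7, which defines muscle stem cells, was at 5.77 normalized counts or less in every library.

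The RNA of the Igf2 and H19 locus was among the most abundant of all. H19 ranked 6 of 23347 genes by mean normalized count in progenitors and 5 of 23118 in preadipocytes, and Igf2 ranked 8 and 9. Together they made up 1.995% to 2.556% of the normalized counts of progenitors on low-ratio milk and 1.707% to 2.314% on high-ratio milk. In preadipocytes their share was 1.973% to 2.292% on low-ratio milk and 2.0% to 2.263% on high-ratio milk. The shares overlapped between milks in both populations.

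Levels of different members were compared per kilobase of the longest annotated transcript. In both tables H19 stood highest (178459 to 236798 normalized counts per kilobase in progenitors and 180215 to 232847 in preadipocytes) and Igf2 next (67461 to 107334 and 50281 to 74271), with no overlap between them. A middle tier of Cdkn1c, Dlk1, Grb10, Plagl1, Mest and Peg3 followed, spread from 1287 to 10354 in progenitors and 1324 to 7972 in preadipocytes. Within that tier Dlk1 overlapped every other gene in progenitors, and in both tables Cdkn1c lay above Grb10, Plagl1, Mest and Peg3. Meg3 came below the tier (491 to 864 in progenitors, 496 to 923 in preadipocytes) and Snhg14 was lowest (10.0 to 37.9 and 10.8 to 45.7). With the median transcript length in place of the longest, Igf2 came first in progenitors, Plagl1 came at rank 3 in both tables, and Snhg14 last in both. Meg3 then came at rank 7 in progenitors, above Mest and Peg3, and at rank 6 in preadipocytes, above Dlk1, Mest and Peg3.

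The library values behind these levels differed in how evenly they were spread. Dlk1 was the most uneven member in progenitors on low-ratio milk, with a coefficient of variation of 63.9%, and came to 38.1% on high-ratio milk. Mest, on the high-ratio side, came to 38.2% in progenitors. Peg3 was the steadiest on low-ratio milk in progenitors, at 5.15%, and Igf2 was at 1.62% in the 3 preadipocyte libraries on high-ratio milk.

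**Figure D1:**
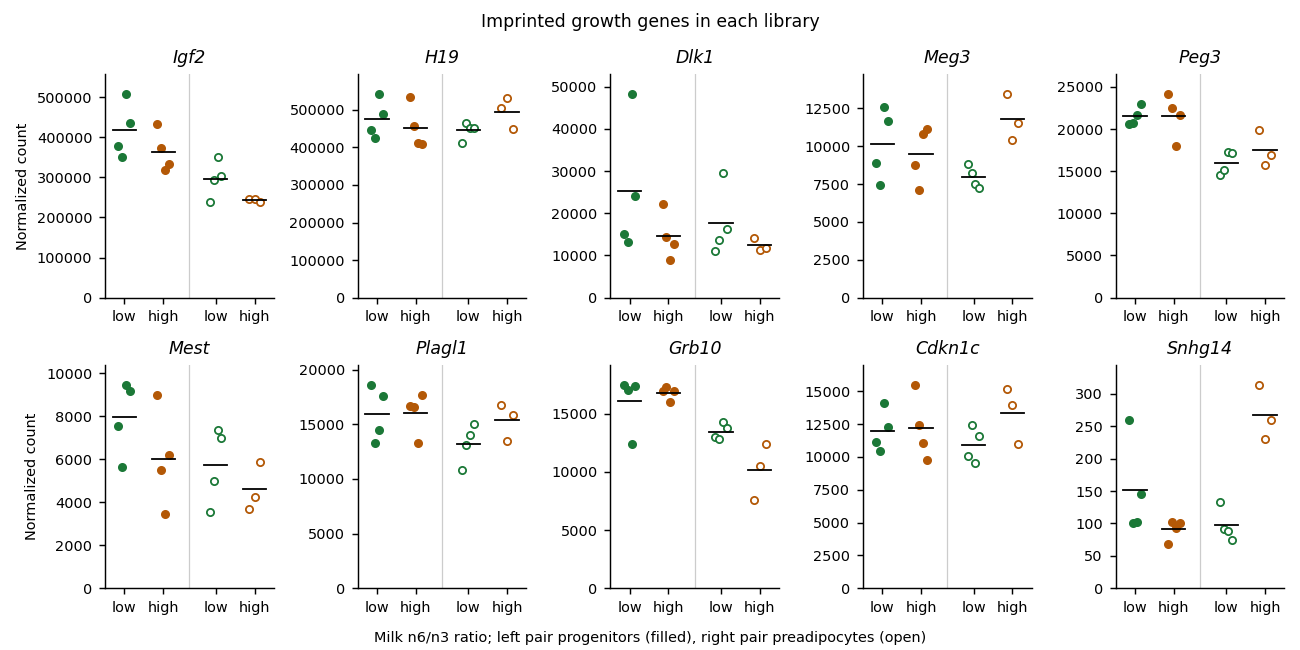
Normalized count (linear axis from 0) of each of the 10 genes in every library, with a bar at the group mean; low-ratio milk is green and high-ratio milk brown, progenitors filled and preadipocytes open. In preadipocytes the milk groups are apart for Meg3, Grb10 and Snhg14, and in progenitors they overlap for all 10 genes.

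The first comparison asked whether the ratio in the milk moved these genes in progenitors. None of the 10 passed limma's test at an adjusted p of 0.05, against 0% of all 15973 genes tested, where 1099 genes had an unadjusted p under 0.05. By the authors' deposited table, 0.581% of genes (101 of 17389) passed at the same threshold and none was a member. The milk groups overlapped for all 10 members, while 4.04% of all genes tested had groups that did not overlap. The median log2 fold change, low minus high ratio on the log2(normalized count + 1) scale, was 0.08 over the 10 members and -0.0037 over all genes tested.

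The second comparison asked the same in preadipocytes, where limma called 458 of 15893 genes, 2.88%. Meg3 and Snhg14 were lower on low-ratio milk, and the other 8 members did not pass. The authors' deposited table called 11.9% of its genes, and of the members again Meg3 and Snhg14. Groups did not overlap for 3 of the 10 members (Grb10, Meg3 and Snhg14), against 21.1% of all genes tested, and their count is to be read against that background. The median log2 fold change was -0.14 over the members and 0.04 over all genes tested.

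The third comparison set the milk effect in preadipocytes minus that in progenitors. It called 350 of 15354 genes, 2.28%, and of the members only Snhg14 in the limma fit. The median difference of log2 fold changes was -0.22 over the members and 0.05 over all genes tested.

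**Figure D2:**
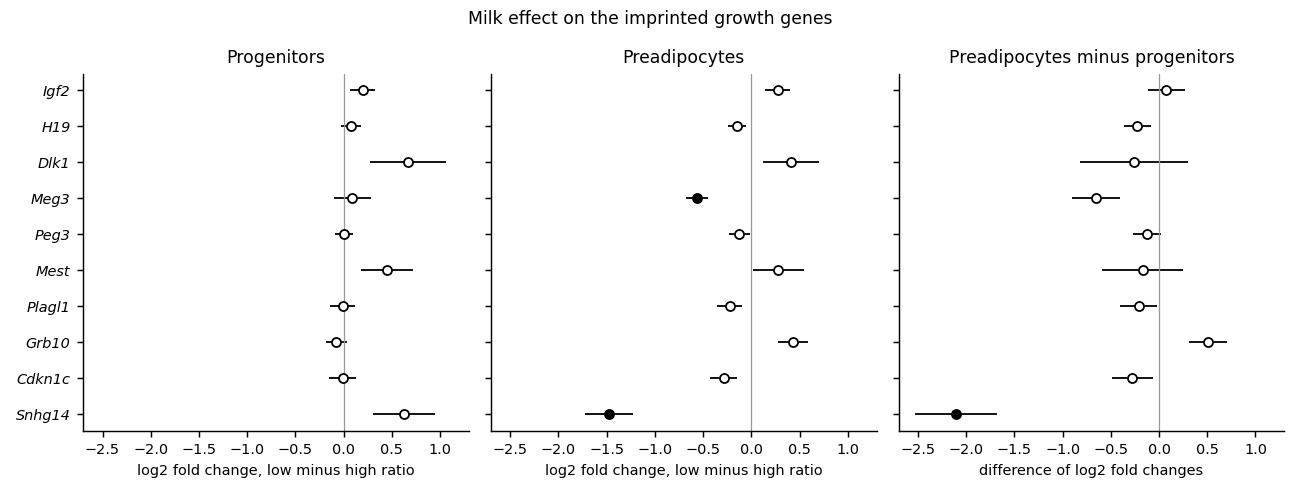
Log2 fold change of each gene, low minus high ratio, with its standard error, in progenitors and in preadipocytes, and the difference of these in the right panel; filled points have a limma adjusted p under 0.05. Meg3 (-0.57) and Snhg14 (-1.48) are filled in preadipocytes, and Snhg14 (-2.11) in the difference.

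Igf2 encodes insulin-like growth factor 2, a secreted ligand that drives fetal and early postnatal growth. In progenitors it had 378797, 351066, 506832 and 434986 normalized counts on low-ratio milk and 431913, 372290, 318550 and 331960 on high-ratio milk. The groups overlapped, with library 119 highest of all and library 1018 lowest. The log2 fold change was 0.20 ± 0.13 (SE), with a limma adjusted p of 0.762. In preadipocytes Igf2 had 237425, 293865, 350707 and 304458 normalized counts on low-ratio milk and 245469, 245583 and 238699 on high-ratio milk. Libraries 114, 119 and 133 lay above all 3 high-ratio ones and library 108 lay below them. The difference came to a log2 fold change of 0.27 ± 0.13, with a limma adjusted p of 0.25.

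H19, the maternally expressed noncoding RNA that shares its control region with Igf2, had 445176, 426028, 541319 and 489849 normalized counts in progenitors on low-ratio milk. On high-ratio milk it had 534674, 457305, 411360 and 407958. Library 119 was again the highest, the groups overlapped, and the log2 fold change was 0.07 ± 0.10 (limma adjusted p = 0.889). In preadipocytes the 4 low-ratio libraries held 411971 to 466242 normalized counts and the 3 high-ratio libraries 449804 to 532287. The groups overlapped there as well, and the log2 fold change was -0.15 ± 0.09 (limma adjusted p = 0.365). The row of Mir675, which lies inside an exon of H19, held 5012 to 5773 normalized counts in progenitors on low-ratio milk and 3866 to 5128 on high-ratio milk, and how reads were shared between the 2 rows is not given in the sources used here. Its log2 fold change was 0.26 ± 0.10 in progenitors (limma adjusted p = 0.676) and -0.12 ± 0.09 in preadipocytes (limma adjusted p = 0.47).

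The ratio of Igf2 to H19 was 0.851, 0.824, 0.936 and 0.888 in progenitors on low-ratio milk and 0.808, 0.814, 0.774 and 0.814 on high-ratio milk. The preadipocyte ratios were 0.576, 0.630, 0.774 and 0.672 on low-ratio milk and 0.486, 0.461 and 0.531 on high-ratio milk. The milk groups did not overlap in either population, by a small margin in progenitors. This ratio was picked out after its values were seen, so no test is given.

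**Figure D3:**
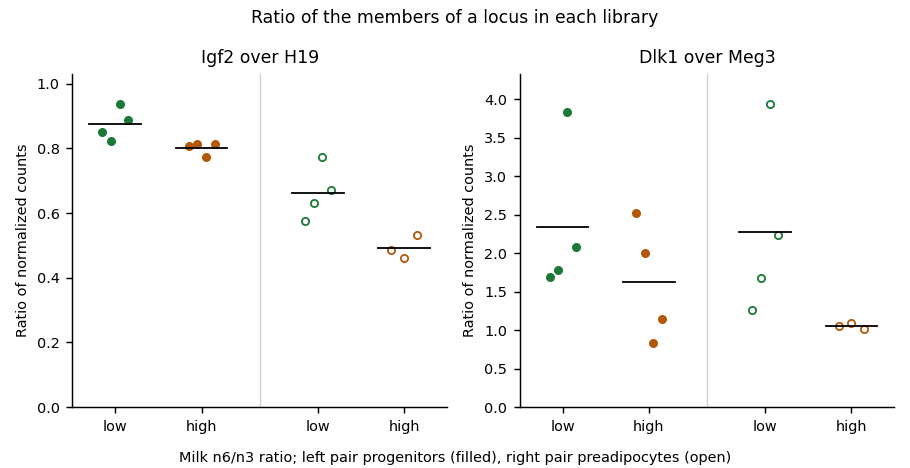
Ratio of normalized counts of Igf2 to H19 and of Dlk1 to Meg3 in every library, with a bar at the group mean; low-ratio milk is green and high-ratio milk brown, progenitors filled and preadipocytes open. The Igf2 to H19 ratio lies between 0.824 and 0.936 on low-ratio and 0.774 and 0.814 on high-ratio milk in progenitors; in preadipocytes both ratios are higher in each low-ratio library than in any high-ratio one.

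Dlk1, a membrane protein with epidermal growth factor repeats, had 14995, 13283, 48175 and 24189 normalized counts in progenitors on low-ratio milk and 22159, 14287, 9001 and 12753 on high-ratio milk. Library 119 was far above the rest, and the log2 fold change was 0.67 ± 0.40 (limma adjusted p = 0.754). In preadipocytes Dlk1 had 11130, 13753, 29633 and 16156 normalized counts on low-ratio milk and 14135, 11348 and 11800 on high-ratio milk. Library 119 was highest there too, and the groups overlapped (log2 fold change 0.41 ± 0.29, limma adjusted p = 0.44). Without library 119 the log2 fold change of Dlk1 was 0.29 in progenitors (limma adjusted p = 0.806) and 0.13 in preadipocytes (limma adjusted p = 0.696). In both tables this library also had the most Des, with 955 normalized counts in progenitors and 380 in preadipocytes. Acta1, on the same list of muscle markers, went differently in preadipocytes. It reached 264 on low-ratio milk and 308 on high-ratio milk, so library 119 did not have the most of it. The part of muscle cells in the Dlk1 value was not tested.

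Meg3, the maternally expressed noncoding RNA downstream of Dlk1, fell on low-ratio milk in preadipocytes. It had 8852, 8225, 7532 and 7211 normalized counts on low-ratio milk and 13429, 10415 and 11564 on high-ratio milk. All 4 low-ratio values were below all 3 high-ratio values. The fitted log2 fold change was -0.57 ± 0.12, 0.676 times the high-ratio level, with a limma adjusted p of 0.0441. The authors' deposited table gives -0.57 with an adjusted p of 0.00132. The call is lost when library 108 (limma adjusted p = 0.0665), 114 (0.0914), 119 (0.108), 133 (0.125), 1015 (0.135) or 1017 (0.113) is left out, with a log2 fold change between -0.65 and -0.47. In bulk libraries, fewer cells of a type and less RNA per cell cannot be told apart.

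In progenitors Meg3 showed no such difference. It had 8894, 7437, 12573 and 11651 normalized counts on low-ratio milk and 8792, 7139, 10819 and 11130 on high-ratio milk, and the groups spanned nearly the same range. The log2 fold change was 0.09 ± 0.19 (limma adjusted p = 0.935). The difference between populations, -0.66 ± 0.25, did not pass limma's test (adjusted p = 0.177), so the effect is not shown to differ between preadipocytes and progenitors. Rian, a noncoding RNA downstream of Meg3 in the same locus, had 14225, 12201, 12854 and 12004 normalized counts in preadipocytes on low-ratio milk and 18058, 16591 and 14863 on high-ratio milk. Its groups were apart in the same direction (log2 fold change -0.36 ± 0.10) with a limma adjusted p of 0.0887, which misses the threshold, and an adjusted p of 0.0302 in the authors' deposited table. The ratio of Dlk1 to Meg3 was 1.257, 1.672, 3.934 and 2.241 in preadipocytes on low-ratio milk and 1.05, 1.09 and 1.02 on high-ratio milk.

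Among the paternally expressed regulators, Peg3, a zinc finger protein, was nearly level. It had 20555, 20765, 21730 and 22983 normalized counts in progenitors on low-ratio milk and 24122, 22486, 17988 and 21710 on high-ratio milk (log2 fold change 0.00 ± 0.09, limma adjusted p = 0.995). In preadipocytes it had 14555 to 17227 normalized counts on low-ratio milk and 15744 to 19889 on high-ratio milk, with overlap (log2 fold change -0.13 ± 0.11, limma adjusted p = 0.541). Plagl1, a zinc finger transcription factor, had 13291 to 18587 normalized counts in progenitors on low-ratio milk and 13281 to 17677 on high-ratio milk. Its preadipocyte libraries held 10792 to 15021 on low-ratio milk and 13499 to 16802 on high-ratio milk. The log2 fold changes of Plagl1 were -0.01 ± 0.13 and -0.22 ± 0.13, with limma adjusted p-values of 0.985 and 0.358.

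Mest, a hydrolase-like protein of the endoplasmic reticulum, varied as much within a milk group as between them. In progenitors it had 7537, 5632, 9443 and 9174 normalized counts on low-ratio milk and 9000, 5495, 3429 and 6182 on high-ratio milk (log2 fold change 0.45 ± 0.27, limma adjusted p = 0.754). In preadipocytes it had 3528, 5005, 7348 and 6989 normalized counts on low-ratio milk and 3695, 4234 and 5879 on high-ratio milk (log2 fold change 0.28 ± 0.27, limma adjusted p = 0.571). The groups overlapped in both.

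Neither of the maternally expressed restrainers of growth passed the test. Grb10, an adaptor that inhibits insulin and IGF receptor signalling, had 12948, 12782, 14287 and 13791 normalized counts in preadipocytes on low-ratio milk and 7606, 10456 and 12385 on high-ratio milk. All 4 low-ratio values were above all 3 high-ratio values, the nearest pair by a narrow margin. This gave a log2 fold change of 0.43 ± 0.15 (limma adjusted p = 0.151), and without library 1019 one of 0.59 with a limma adjusted p of 0.0403. In progenitors Grb10 had 17448, 17053, 12403 and 17341 normalized counts on low-ratio milk and 16958, 17248, 15951 and 16937 on high-ratio milk. Library 119 was alone at the low end, and the log2 fold change was -0.08 ± 0.11 (limma adjusted p = 0.893). The difference between populations was 0.51 ± 0.20 (limma adjusted p = 0.186, and 0.0486 without preadipocyte library 1019).

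Cdkn1c, an inhibitor of cyclin-dependent kinases, had 10054, 12426, 9534 and 11610 normalized counts in preadipocytes on low-ratio milk and 15154, 13930 and 10991 on high-ratio milk. The groups overlapped through library 1019 (log2 fold change -0.29 ± 0.14, limma adjusted p = 0.269). In progenitors it had 11143, 10449, 14095 and 12289 on low-ratio milk and 15474, 12419, 11059 and 9796 on high-ratio milk, again with overlap (log2 fold change -0.01 ± 0.14, limma adjusted p = 0.987). Gm44732, a gene that overlaps Cdkn1c on the opposite strand, had 138 to 164 normalized counts in preadipocytes on low-ratio milk and 194 to 312 on high-ratio milk (log2 fold change -0.64 ± 0.21, limma adjusted p = 0.132, and 0.0402 in the authors' deposited table). It was chosen after its values were seen. Igf2os, which overlaps Igf2, and Copg2, which overlaps Mest, went the other way in preadipocytes. They differed by 0.67 ± 0.27 (limma adjusted p = 0.196) and 0.19 ± 0.48 (limma adjusted p = 0.85).

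Snhg14, a long paternally expressed transcript that hosts small nucleolar RNAs and in neurons runs antisense into Ube3a, was the least abundant member. In preadipocytes it had 134, 91.8, 88.7 and 74.0 normalized counts on low-ratio milk and 314, 230 and 259 on high-ratio milk. The groups lay well apart, and every high-ratio library was above the highest low-ratio one, library 108. Here the log2 fold change was -1.48 ± 0.25, 0.36 times the high-ratio level, with a limma adjusted p of 0.0347. The authors' deposited table gives -1.46 with an adjusted p of 6.79e-06. On the deposited variance stabilized scale, which compresses low values, it came to -0.70 (limma adjusted p = 0.0338). As for Meg3, the limma call is lost without library 108 (adjusted p = 0.0577), 114 (0.0746), 119 (0.0837), 133 (0.101), 1015 (0.107) or 1017 (0.111), with a log2 fold change between -1.64 and -1.36.

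Progenitors gave a fold change of the opposite sign for Snhg14 that did not pass the test. They had 260, 101, 102 and 145 normalized counts on low-ratio milk and 68.7, 103, 93.2 and 101 on high-ratio milk. Libraries 108 and 133 lay above all 4 high-ratio ones, and libraries 114 and 119 lay within their range (log2 fold change 0.63 ± 0.32, limma adjusted p = 0.748). The milk effect in preadipocytes minus that in progenitors was -2.11 ± 0.43 (limma adjusted p = 0.0236). That call is lost without preadipocyte library 1015 (adjusted p = 0.0726), 1017 (0.0521), 119 (0.0506) or 133 (0.0537). It is also lost with the library number as a replicate block.

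Ube3a, a ubiquitin ligase gene that overlaps Snhg14 on the opposite strand and is on the list of other imprinted genes below, was also called in preadipocytes. Whether it is imprinted in these cells was not tested. It had 1681, 2121, 2110 and 1617 normalized counts in preadipocytes on low-ratio milk and 2511, 3271 and 3419 on high-ratio milk, so that it fell (log2 fold change -0.70 ± 0.15, limma adjusted p = 0.0497). In progenitors it had 2123, 2572, 2209 and 2136 on low-ratio milk and 1937, 1948, 1566 and 1887 on high-ratio milk, with a log2 fold change of 0.30 ± 0.11 that did not pass (limma adjusted p = 0.667). The difference between populations was -1.004 ± 0.18 (limma adjusted p = 0.0182), and it did not pass with the library number as a replicate block. The strand setting of the counting is not given in the sources used here, so reads of Ube3a and Snhg14 cannot be told apart where they overlap.

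Some cell type markers also differed between the milks in preadipocytes. The 9 adipocyte precursor markers listed summed to 2524180 to 3345810 normalized counts on low-ratio milk and 1981200 to 2423590 on high-ratio milk. Nearly all of that sum was Col1a1, at 2735060 ± 333640 on low-ratio milk (SD, n = 4) and 1972940 ± 243930 on high-ratio milk (n = 3). Ly6a, on the same list, went the other way with groups apart (19641 ± 2806 and 27549 ± 3397), and Cd24a was nearly level. The 4 endothelial markers summed to 8361 to 12029 on low-ratio milk and 6319 to 8064 on high-ratio milk. Neither pair of sums overlapped. Of the 4 endothelial markers, Tek, an endothelial receptor gene, made up most of the sum and rose (8193 ± 1244 on low-ratio milk, SD, n = 4, and 5309 ± 268 on high-ratio milk, n = 3, limma adjusted p = 0.0469). Pecam1 (640 ± 179 and 716 ± 215) and Kdr (277 ± 70.0 and 321 ± 96.8) had the higher mean on high-ratio milk. Cdh5 had the higher mean on low-ratio milk (1064 ± 256 and 957 ± 402). The milk groups overlapped for Pecam1, Kdr and Cdh5. Of the 9 precursor markers, 0 passed. In progenitors the precursor markers summed to 4106590 to 4854490 on low-ratio milk and 4882900 to 5161460 on high-ratio milk, again nearly all Col1a1. The part of cell makeup in the Meg3 and Snhg14 differences was not tested.

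Values of long RNAs that stay in the nucleus are given beside these. Malat1, chosen after its values were seen, had 2547, 3277, 1846 and 3050 normalized counts in preadipocytes on low-ratio milk and 4486, 7950 and 3806 on high-ratio milk. In progenitors it had 7828, 4475, 2445 and 5557 on low-ratio milk and 1978, 3083, 2271 and 2991 on high-ratio milk. Its milk groups were apart in preadipocytes and overlapped in progenitors. The log2 fold changes of Malat1 were -0.97 ± 0.28 in preadipocytes (limma adjusted p = 0.0912) and 0.88 ± 0.31 in progenitors (limma adjusted p = 0.672). Neat1, another nuclear RNA chosen after its values were seen, differed by -0.67 ± 0.21 in preadipocytes (limma adjusted p = 0.114) and by 0.27 ± 0.26 in progenitors (limma adjusted p = 0.841). The authors' deposited table gives adjusted p-values of 0.00832 for Malat1 and 0.0398 for Neat1 in preadipocytes. The part of the libraries' nuclear RNA content in the Meg3 and Snhg14 differences was not tested.

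**Figure D4:**
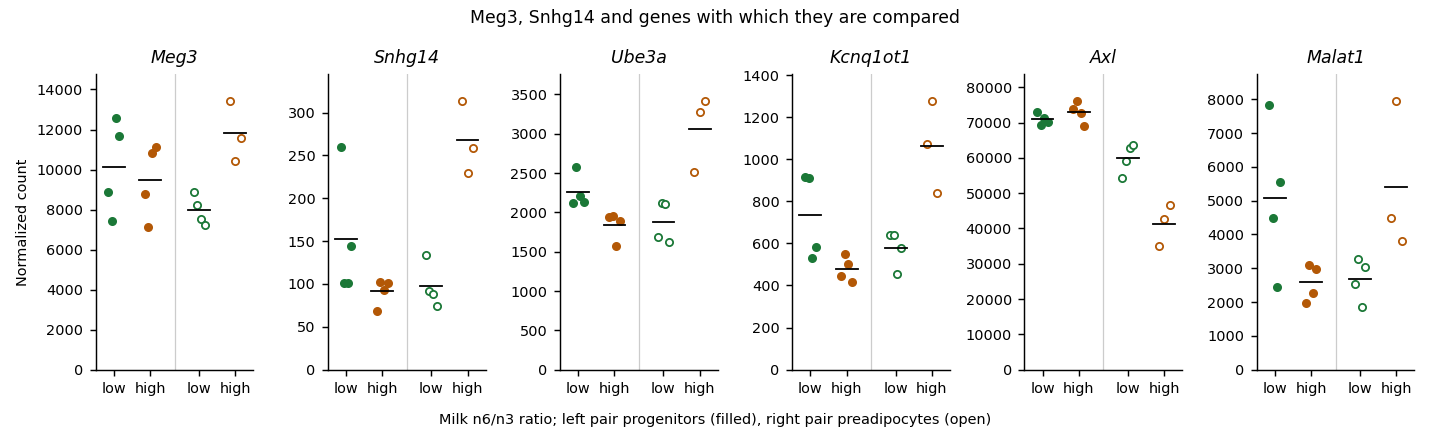
Normalized count (linear axis from 0) of Meg3, Snhg14, Ube3a, Kcnq1ot1, Axl and Malat1 in every library, with a bar at the group mean; low-ratio milk is green and high-ratio milk brown, progenitors filled and preadipocytes open. In preadipocytes all but Axl are lower in each low-ratio library than in any high-ratio one, and Axl is higher.

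Some members moved together from library to library among progenitors. Igf2 and Dlk1 kept the same rank order over all 8 libraries, from library 1018 at the bottom to library 119 at the top, with Pearson's r = 0.977 on the log2 scale (exact permutation p = 2.48e-05, adjusted p = 0.00223 over the 90 relations of members computed in both tables) and Spearman's rho = 1.0 (exact permutation p = 4.96e-05, adjusted p = 0.00446). These are the smallest p-values the permutations can give. Without the 2 libraries farthest from the median of Igf2, r was 0.968. Igf2 and H19 had r = 0.954 (exact permutation p = 0.000198, adjusted p = 0.00595) and rho = 0.929 (exact permutation p = 0.00223, adjusted p = 0.0402), with r = 0.943 without the 2 farthest libraries.

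H19 and Cdkn1c, which both lie near the distal end of chromosome 7, had r = 0.939 (exact permutation p = 0.000794, adjusted p = 0.0165) and rho = 0.929 (exact permutation p = 0.00223, adjusted p = 0.0402), with r = 0.843 without the 2 farthest libraries. H19 and Dlk1 had r = 0.895 (exact permutation p = 0.000918, adjusted p = 0.0165) and rho = 0.929 (exact permutation p = 0.00223, adjusted p = 0.0402), with r = 0.887 without the 2 farthest libraries. These 4 of the 45 pairs passed in progenitors. As deviations from the milk mean, 6 pairs passed by Pearson's r and 1, Igf2 and Dlk1, by Spearman's rho, whose adjusted exact permutation p was 0.103 for Igf2 and H19, 0.103 for H19 and Dlk1 and 0.0513 for H19 and Cdkn1c. Dlk1 and Meg3, though neighbours, had r = 0.433 (exact permutation p = 0.293, adjusted p = 0.534) and rho = 0.381 (exact permutation p = 0.36), and r was -0.40 without the 2 farthest libraries.

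In preadipocytes neither neighbour pair passed. Igf2 and H19 had r = -0.14 (exact permutation p = 0.781, adjusted p = 0.889) and rho = 0.357 (exact permutation p = 0.444). Dlk1 and Meg3 had r = -0.51 (exact permutation p = 0.254, adjusted p = 0.523) and rho = -0.46 (exact permutation p = 0.302). Without the 2 farthest libraries r was 0.11 and -0.53. Igf2 and Dlk1 had r = 0.898 (exact permutation p = 0.00536, adjusted p = 0.0603) and rho = 0.821 (exact permutation p = 0.0341, adjusted p = 0.236) in preadipocytes, which did not pass. For this pair r was 0.603 without the 2 farthest libraries. The libraries of Meg3 and Snhg14 fall into 2 clusters there, 1 per milk and each under 6 libraries, so no r is given over the 7 values. As deviations from the milk mean the 2 genes had r = 0.892 (exact permutation p = 0.00536, adjusted p = 0.0689) and rho = 0.893 (exact permutation p = 0.0123, adjusted p = 0.158), which did not pass.

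**Figure D5:**
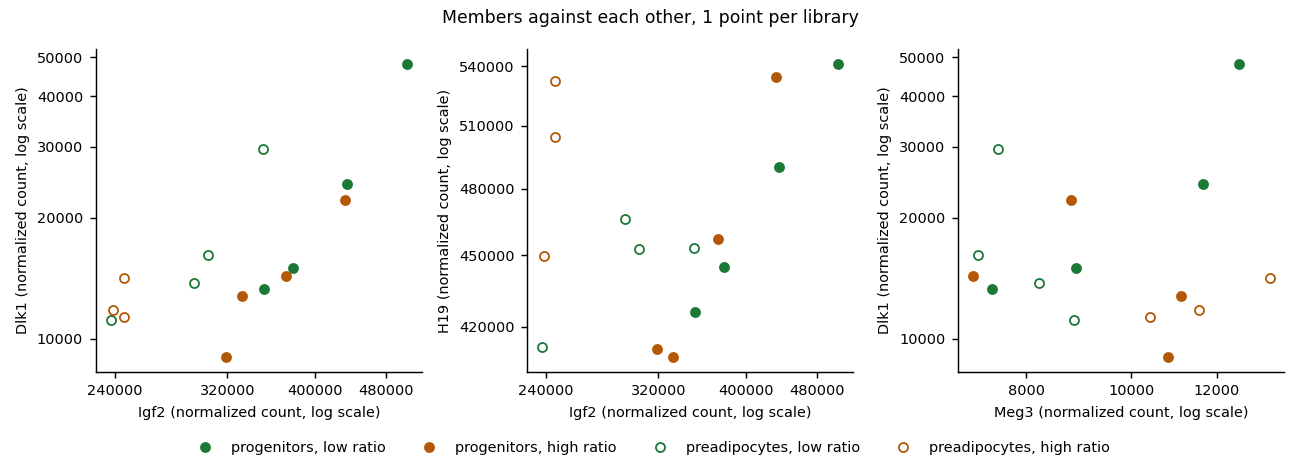
Normalized counts of Dlk1 against Igf2, H19 against Igf2 and Dlk1 against Meg3, all on log axes, 1 point per library; low-ratio milk is green and high-ratio milk brown, progenitors filled and preadipocytes open. Dlk1 climbs with Igf2 over the 8 progenitor libraries (r = 0.977), while Dlk1 and Meg3 form no line (r = 0.433).

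Likeness was also measured over all 15 libraries, as Pearson's r of log2 values centred in each of the 4 groups, against 10835 genes with a mean of at least 100 normalized counts in both tables. It is a description, since the points share libraries and depth. The gene most like Igf2 was Dlk1 (r = 0.943), followed by Ltbp4 (0.917) and Cacng7 (0.889), and H19 came at rank 13 (0.838). The gene most like H19 was Cdkn1c (r = 0.887), followed by Emc10 (0.861) and mt-Nd2 (0.858). Dlk1 was most like Igf2, then Sdk2 (0.925) and Ret (0.924). Meg3 was most like BC004004 (0.880), Zswim8 (0.879) and Vdac3-ps1 (0.860), with its neighbour Dlk1 at rank 2423 (0.264). Peg3 was most like Amot (0.854), C2cd3 (0.853) and Abcb10 (0.845).

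Other imprinted genes were followed as a list of 55, of which 54 were in the tables. In progenitors 45 were tested, none passed, and 25 lay above 0 and 20 below, with a median log2 fold change of 0.02. The smallest p-values there belonged to Ube3a, to Kcnq1ot1 (log2 fold change 0.58 ± 0.20, limma adjusted p = 0.672), to Usp29, a ubiquitin protease gene of the Peg3 domain (0.64 ± 0.25, limma adjusted p = 0.693) and to Klf14, a transcription factor (0.54 ± 0.24, limma adjusted p = 0.726). In preadipocytes 46 were tested, 1 was called higher on low-ratio milk and 2 lower, with a median of 0.05. That is 3 of 46 against 2.88% of all genes tested. None of the 3 passed when library 108, 114, 119, 133, 1015 or 1017 was left out.

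The gene called higher was Axl, a receptor tyrosine kinase. It had 54326, 59067, 62741 and 63757 normalized counts in preadipocytes on low-ratio milk and 34992, 42615 and 46539 on high-ratio milk. The groups were apart (log2 fold change 0.54 ± 0.11, limma adjusted p = 0.0469), and the difference from progenitors was 0.58 ± 0.12 (limma adjusted p = 0.0253). That difference did not pass with the library number as a replicate block. Besides Ube3a, the gene called lower was Kcnq1ot1, the long noncoding RNA of the domain that holds Cdkn1c.

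Kcnq1ot1 is a nuclear antisense RNA that silences genes around it on the paternal chromosome. It had 640.0, 642, 456 and 578 normalized counts in preadipocytes on low-ratio milk and 1074, 1278 and 838 on high-ratio milk (log2 fold change -0.87 ± 0.19, limma adjusted p = 0.0481). Progenitors held 918, 909, 530.2 and 582 on low-ratio milk and 447, 548, 504 and 415 on high-ratio milk, and the difference between populations was -1.45 ± 0.29 (limma adjusted p = 0.0232). Next by p-value in preadipocytes stood Mcts2, a retrogene, at 50.4, 60.2, 37.9 and 59.1 normalized counts on low-ratio milk and 179, 138 and 86.4 on high-ratio milk. It did not pass (log2 fold change -1.32 ± 0.32, limma adjusted p = 0.0611).

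Of the most abundant genes on that list, Gnas, which encodes a stimulatory G protein subunit, differed by -0.12 ± 0.11 in progenitors and 0.19 ± 0.08 in preadipocytes on the log2 scale (limma adjusted p = 0.818 and 0.232). Cd81, a tetraspanin, differed by 0.06 ± 0.07 and 0.01 ± 0.09 (limma adjusted p = 0.868 and 0.954). Ndn, known to hold back adipocyte differentiation in mouse cells, differed by -0.05 ± 0.12 and -0.08 ± 0.12 (limma adjusted p = 0.940 and 0.742).

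The receptors and binding partners of IGF2 formed a list of 12 genes, all in the tables, and none passed limma's test in either population. In progenitors 12 were tested, 6 lay above 0 and 6 below, with a median log2 fold change of -0.03. In preadipocytes 11 were tested, with a median of 0.30 against 0.04 over all genes tested. Groups did not overlap for 3 of the 11 (Igf2r, Igf2bp2 and Igf1r), against 21.1% of all genes tested, and their count is to be read against that background. Igf2r, the maternally expressed receptor that clears IGF2, had 10404, 12549, 11382 and 10002 normalized counts in preadipocytes on low-ratio milk and 8524, 7841 and 5218 on high-ratio milk. Its groups were apart, and it did not pass (log2 fold change 0.65 ± 0.17, limma adjusted p = 0.0761), although the authors' deposited table gives an adjusted p of 0.0169. In progenitors Igf2r differed by -0.34 ± 0.23 (limma adjusted p = 0.762).

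Igf2bp2, an RNA-binding protein that binds Igf2 transcripts, had 2108, 2530.0, 2803 and 2422 normalized counts in preadipocytes on low-ratio milk and 1516, 1814 and 1992 on high-ratio milk. Again the groups were apart without passing limma's test (log2 fold change 0.48 ± 0.13, limma adjusted p = 0.0904), although the authors' deposited table gives an adjusted p of 0.0272. In progenitors Igf2bp2 differed by 0.31 ± 0.14 (limma adjusted p = 0.723). Igf1r, the receptor through which IGF2 signals, differed by 0.22 ± 0.11 in progenitors (limma adjusted p = 0.748) and by 0.33 ± 0.15 in preadipocytes, where its groups were apart (limma adjusted p = 0.236). The abundant secreted binding proteins did not pass either: Igfbp5 differed by 0.14 ± 0.21 in preadipocytes (limma adjusted p = 0.727), Igfbp6 by 0.13 ± 0.13 (0.611) and Igfbp3 by 0.30 ± 0.12 (0.203). In progenitors these 3 differed by -0.27 ± 0.15, -0.07 ± 0.08 and -0.07 ± 0.09 (limma adjusted p = 0.748, 0.877 and 0.872).

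Set side by side, the group means of Igf2 were 296614 ± 46542 normalized counts in preadipocytes on low-ratio milk (SD, n = 4) and 243251 ± 3942 on high-ratio milk (n = 3), and 417920 ± 68791 and 363678 ± 50901 in progenitors (n = 4 each). Those of H19 were 446048 ± 23562 and 495594 ± 41988 in preadipocytes, and 475593 ± 51332 and 452824 ± 59024 in progenitors. The 2 tables were normalized separately, so these levels are not compared between populations by a test.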

How the data were processed

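Values came from 2 tables, 1 per sorted population, whose sample columns hold deposited log2-scale values of the authors' variance stabilizing transformation. The submitters' processing notes list the tools Salmon (0.14.2) and DESeq2 (1.28.1), with builds mm10 and GRCm38. How strand was set is not given in the sources used here. Both tables also hold the authors' log2 fold changes, p-values and adjusted p-values, used as a second source. The transformation was inverted to normalized counts, whose group means gave the authors' log2 fold changes to a median difference of 0.00304 (preadipocytes) and 0.000751 (progenitors). Depth was estimated from the step of low values, the worth of 1 read. The step matched 45.2% of low values in preadipocyte library 1015 and 38.9% in preadipocyte library 1017. These libraries set the preadipocyte range of depth, so its ends are rough. The values held no counts, so the count test listed for that case was not run. Milks were compared with limma 3.58.1 (R 4.3.3; trend and robust options) on log2(normalized count + 1) over genes with a mean of at least 10, with Benjamini-Hochberg adjustment over all genes tested at 0.05. On simulated data with 50 genes changed by a log2 of 1, the fit called 60% in progenitors and 42% in preadipocytes. With 50 genes changed by a log2 of 0.5 it called 14% and 6%, so most simulated effects of that size were missed. The changed genes were drawn from all with a mean of at least 50. Counting noise was added to the observed spread, so these shares need not hold for the members. Correlations used exact permutation of pairings on log2 values. Members, gene lists and tests were chosen with earlier results of these data known. All 10 members were named, and from the lists the genes past the threshold, those with the smallest p-values and the most abundant ones. Malat1, Neat1, Mir675, Gm44732, Igf2os and Copg2 were added after their values were seen. Labels do not state that libraries came from separate litters, and the p-values cover only the library-to-library spread, which may be partly technical. Alternatives were another pseudocount, no filter, the deposited values, TMM scaling, plain limma, removal of GC and length trends, a replicate block and leaving out each library.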

Additional observations from a re-analysis of the deposited data

Results flagged for a closer look

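Among the 30 groups of 4 libraries tested over the 10 members, 1 stood out: Grb10 in progenitors on low-ratio milk, where library 119 had 12403 normalized counts and the other 3 had 17053 to 17448. Chance alone marks about 1 in 20 such groups. The milk effect differed between preadipocytes and progenitors for Snhg14 (-2.11 on the log2 scale), Kcnq1ot1 (-1.45), Ube3a (-1.004) and Axl (0.58), each past limma's adjusted threshold for the difference itself. With the library number as a replicate block, only Kcnq1ot1 of these genes passed.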

How the results depend on the processing

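In progenitors 0 members were called under every alternative run. The preadipocyte calls of Meg3 and Snhg14 held with a pseudocount of 4, no filter, the deposited values, TMM scaling and the authors' deposited table, and 0 members were called by limma without trend and robust options or with GC and length trends removed. Leaving out 1 library gave 0 to 3 members. Over all genes, calls in preadipocytes were 6 with plain limma, 9 with the trend removal and 2 to 1159 without 1 library, against 458. For the difference between populations they were 153, 113 and 70 to 849, against 350.

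Of the other imprinted genes in preadipocytes, the deposited values gave 1 call, plain limma 0 and the trend removal 0. The authors' deposited table had 7, where it called 11.9% of all its genes. Leaving out 1 library gave 0 to 6, where calls over all genes ran from 2 to 1159. For the difference between populations, leaving out 1 library gave 0 to 2 members and 0 to 5 other imprinted genes, and the trend removal gave 0 other imprinted genes.

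Library numbers recur in both tables, but over all genes the deviations of the 7 same-numbered pairs correlated at only -0.143 to 0.0882, and 1 of the 7 correlated best with its own number. The numbers were therefore not taken to pair samples, although such low correlations cannot show that same-numbered libraries came from different pups. With the number as a replicate block, 43 genes were called, against 350 without it, with 0 members (Snhg14 at -2.12, limma adjusted p = 0.0674) and 1 other imprinted gene, Kcnq1ot1. Mest turned to 0.0727 under the block. Over the 7 numbers, Dlk1 had r = 0.934 between the tables (exact permutation p = 0.00238, adjusted p = 0.0238 over the 10 members, r = 0.681 without the 2 farthest numbers) and rho = 0.929 (exact permutation adjusted p = 0.0675), Peg3 had r = 0.839 (exact permutation adjusted p = 0.143), and the others had adjusted p of at least 0.408.

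Uncalled effects near 0 changed sign, and the cause was not tested. In progenitors Peg3 came to -0.0137 with TMM, -0.0454 with the trend removal and -0.0046 in the authors' deposited table. Over all alternatives, the authors' deposited table included, the range there was -0.0388 to 0.228 for Meg3, -0.0824 to 0.0587 for Peg3, -0.121 to 0.0436 for Grb10, -0.11 to 0.11 for Cdkn1c and -0.0996 to 0.0727 for Plagl1. For the difference between populations the range over all alternatives, the replicate block included, was -0.0101 to 0.178 for Igf2, -0.54 to 0.121 for Dlk1 and -0.391 to 0.0727 for Mest. Igf2 was -0.0021 with the trend removal. As deviations from the milk mean, Igf2 and H19 in preadipocytes had r = 0.533, and 0 preadipocyte pairs passed, against 1 (Meg3 and Snhg14) on the values. For Snhg14 the deposited values gave -0.93 for the difference between populations (limma adjusted p = 0.0155), against -2.11. Depth limits Snhg14 most, the member with the lowest counts.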
